A study of Mus musculus with 18 samples.

Results

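Non-targeting control guides are the 24 sgRNAs of the screening library that were assigned to no gene. They were taken as every row of the deposited read table whose gene field reads NT-Control, 24 of 252 sgRNAs. The other 228 sgRNAs target 76 genes, 3 per gene, in a set that the submitters put together around cell death. All 24 control guides were counted in all 18 libraries, and none had a count of 0 in any of them.

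The screen used Ba/F3, a mouse pro-B cell line that grows on interleukin-3, in a derivative the submitters call sensBa/F3. The ITPK1-WT cells were the parental line. The ITPK1-KO cells were a pool of 6 clones with ITPK1 deletions, made by electroporating an ITPK1 guide plasmid and kept because they carried no lentiviral integration. ITPK1 is a kinase of the inositol phosphate pathway. Each background was transduced once with the library and grown for 10 days, which gave 1 baseline library per background. The 2 pools were stained with CellTrace violet (ITPK1-WT) or yellow (ITPK1-KO), mixed 1:1 and injected into the peritoneum of 8 hCD89-transgenic mice, 20000000 cells each. The human IgA receptor CD89 lets myeloid cells of the mouse engage IgA. According to the authors' deposited legend, mice 1 to 4 received vehicle (PBS) and mice 5 to 8 anti-hHer2 IgA. The sources used here do not give the age or strain of the mice or the promoter of the transgene. After 16 hours viable tumor cells were recovered and sorted by dye, which gave 16 further libraries, 4 per background and arm. Dye and genotype cannot be told apart in any comparison between backgrounds. Every mouse received cells of the same 2 pools, so p-values measure the spread between mice that share 1 transduction.

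A non-targeting guide has the length and scaffold of any other sgRNA but a spacer designed to match no site in the genome. Cas9 loaded with it should cut nothing, so cells with such a guide carry the vector and the nuclease without a break in their DNA. Screens use these cells as a zero line and as a measure of noise, and compare them with guides that cut genes the cell does not need. The read count of a guide follows how many cells carry its cassette, and one guide's share can fall because its cells were lost or because cells with other guides gained.

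The control guides whose values are given in most detail are shown first, 5′ to 3′, with every CpG dinucleotide (the letters CG, the same on both strands) in capitals. NT-sg16 and NT-sg23 had the most reads, NT-sg8 and NT-sg9 the fewest. NT-sg3, NT-sg5, NT-sg15 and NT-sg20 differed between arms or backgrounds, and NT-sg14 was the one control guide with no CpG.
NT-sg16: gCGctCGaacaaacatggtc
NT-sg23: tgaCGCGcctCGgaccaacc
NT-sg8: cattctctgaCGaatgCGcc
NT-sg9: cCGcttgggCGctattaatt
NT-sg3: acCGCGcatcattgaCGgtg
NT-sg5: agtcatcctctatgCGCGta
NT-sg15: gcataaCGgcCGagcaccac
NT-sg20: taattCGcaactCGgatcat
NT-sg14: gagacccattatgatcctag

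The control guides were rich in CpG. Of the 24, 21 (87.5%) held 2 or more CpG, against 50 of 228 targeting sgRNAs (21.9%), and the mean was 2.13 ± 0.797 (SD) per control guide against 0.925 ± 0.961. Their GC content was 54.8 ± 8.01% (SD, range 40 to 70%), against 50.9 ± 10.1% (SD, range 25 to 85%) for the targeting sgRNAs. A run of 4 T, which ends transcription by RNA polymerase III, occurred in neither set. Each control guide differed from every other sgRNA of the library at 7 or more of its 20 bases. The search for matching sites was limited to the RefSeq promoter windows of assembly GRCm38.p6, which held 32807 windows of 300 bases. Over both strands and next to an NGG PAM, the closest site to a control guide had 4 to 6 mismatches. For the targeting sgRNAs the closest such site had 3 to 6, with 14 of 228 under 4 against 0 of 24 control guides. Sites outside these windows were not searched, so the design of the guides as non-targeting was not checked over the genome.

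Libraries held 317564 to 808586 reads, of which the control guides took 43037 to 107067. With 24 of 252 sgRNAs they would hold 9.52% of reads at equal abundance. They held 12.8 to 13.7% in every library, with an exact (Clopper-Pearson) 95% interval of 0.0739 to 0.119 percentage points on either side, which covers counting error only. The median control guide had 1.35 to 1.52 times the reads of the median targeting sgRNA. In 17 of 18 libraries 22 of 24 control guides lay above the targeting median, and in the ITPK1-WT cells of IgA mouse 5 it was 21. At baseline, 209 of 228 targeting sgRNAs in ITPK1-WT cells and 202 of 228 in ITPK1-KO cells lay below the control median.

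Guides against genes expressed mainly in other tissues stood below the control guides as well. The 15 sgRNAs against Foxi1, Jph3, Sycp2, Kcnip1 and Defb1, genes of kidney and inner ear, brain, germ line, neurons and epithelium, had a baseline median log2 level of −0.54 relative to the control median with intact ITPK1 and −0.32 in ITPK1-KO cells. All targeting sgRNAs together stood at −0.54 and −0.44. The 9 sgRNAs against Grb2, Txnl4b and Eif5b, a growth factor adaptor, a splicing factor and a translation initiation factor, stood at −4.27 and −4.75, with 9 of 9 below the control median. The original plasmid pool was not analysed here, so the part of these gaps that was present before transduction was not tested.

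The control guides differed widely among themselves, and in nearly the same order everywhere. NT-sg23 had the most reads of them in the ITPK1-WT baseline, 5100, and NT-sg16 the most in each of the other 17 libraries, with 4923 reads in the ITPK1-WT baseline and 4605 in the ITPK1-KO baseline. NT-sg8 had the fewest in all 18 libraries, 350 and 281 reads at baseline, or 0.107 and 0.0991 of the control median. NT-sg9 came next with 1200 and 1198 reads, or 0.367 and 0.422 of the median. The most abundant control guide exceeded NT-sg8 by 14.6 to 19.9-fold and the second lowest by 3.39 to 4.29-fold. Across the 24 guides, which share vector and pool, log2 reads of the 2 baselines had a Pearson correlation of 0.992.

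Much of the spread over the control guides came from NT-sg8. The SD of log2 reads over the control guides was 0.761 to 0.834 per library, against 1.18 to 1.55 over the targeting sgRNAs. Without NT-sg8 it was 0.356 to 0.432. In the ITPK1-WT baseline the SD was 0.576 over the 15 guides against tissue-restricted genes and 0.776 over the 24 control guides. In the ITPK1-KO baseline these were 0.519 and 0.786. Between 11 and 15 targeting sgRNAs per library had fewer reads than NT-sg8, and 35 to 44 (15.4 to 19.3% of 228) had fewer than the second lowest control guide. In each library exactly 1 targeting sgRNA exceeded the highest control guide.

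Over mice of one group a control guide varied by a few percent. The median SD of log2 normalised counts was 0.0328 in ITPK1-WT vehicle cells, 0.0504 in ITPK1-WT IgA cells, 0.0459 in ITPK1-KO vehicle cells and 0.0353 in ITPK1-KO IgA cells (n = 4 mice each). Counting error alone gives 0.0239 to 0.0265 at these read numbers. Targeting sgRNAs with reads in the range of the control guides other than NT-sg8 had 0.0398, 0.05, 0.0461 and 0.0429 in the same order of groups. NT-sg8, with the fewest reads, had the highest SD in each group, 0.0892 to 0.15. The spread over mice of the control guides exceeded counting error in all 4 groups. It was of the size seen for these targeting sgRNAs, for which counting error alone gives more, 0.0276 to 0.0310. Chi-square per degree of freedom, which sets the spread against counting error, was 2.21, 3.32, 2.79 and 3.06 for the control guides. For these targeting sgRNAs it was 2.62, 3.66, 2.52 and 3.07, in the same order of groups.

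The first comparison asks how control guides stood after IgA relative to vehicle in ITPK1-WT cells. Their share of reads was lower under IgA. It was 13.5, 13.4, 13.5 and 13.5% in vehicle mice 1 to 4 (mean 13.5 ± 0.0303%, SD) and 13.2, 13.2, 13 and 12.8% in IgA mice 5 to 8 (mean 13.1 ± 0.190%, SD). The arms did not overlap, and the difference was −0.413 percentage points (SE 0.0963). Without the sgRNAs of 8 genes with large responses or growth effects in the total it was −0.418. These genes were Itpk1, Ipmk, Commd4, Hspbap1, Daxx, Grb2, Txnl4b and Eif5b. Leaving NT-sg23, the most abundant control guide of the ITPK1-WT baseline, out of the control sum gave −0.355. The share is a sum over the chosen guides and is given without a test.

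Cell number moved with the arm. All vehicle samples were sorted to 2000000 cells, while the ITPK1-WT samples of mice 5 to 8 held 1200000, 2000000, 1000000 and 657000 cells. The lowest share, 12.8%, was that of mouse 8, which gave the fewest cells. In mouse 6, sorted to the same number of cells as the vehicle mice, the share was 13.2%, below all 4 vehicle values. The vehicle libraries and mouse 5 carry read-file numbers of one series, and mice 6 to 8 and both baselines those of another. Within the first series mouse 5, at 13.2%, also lay below all 4 vehicle mice. The part of cell number in the difference was not tested.

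Guide by guide, edgeR's quasi-likelihood test with Benjamini-Hochberg adjustment over all 252 sgRNAs called 9 of 24 control guides in ITPK1-WT cells at an adjusted p under 0.05. The background was 27.8% of all sgRNAs, 13.9% higher and 13.9% lower, and 61 of 228 targeting sgRNAs were called, 34 higher and 27 lower. Of the control guides 8 fell (NT-sg3, NT-sg4, NT-sg5, NT-sg7, NT-sg12, NT-sg15, NT-sg22 and NT-sg23) and 1 rose (NT-sg9). The median log2 fold change over the 24 was −0.059, with 19 below 0, against 0.0035 over the targeting sgRNAs. The whole range over control guides was −0.21 to 0.16, and its SD 0.073 against 0.145 for targeting sgRNAs. Over 227 targeting sgRNAs, Spearman's rho with this log2 fold change was −0.33 for GC content and −0.30 for log2 baseline reads. Over the 24 control guides these were −0.47 and −0.23. The part of GC content and abundance in the lower control median was not tested.

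In normalised CPM, the reads of a guide among all sgRNA reads of a library scaled by TMM factors, NT-sg5 had 4650, 4728, 4800 and 4834 in vehicle mice 1 to 4 and 4506, 4479, 4298 and 4373 in IgA mice 5 to 8. All IgA values lay below all vehicle values, and the log2 fold change was −0.11 (SE 0.032, edgeR adjusted p = 0.00520). NT-sg23 had 8637, 8353, 8552 and 8722 against 7927, 8481, 7914 and 7630, a log2 fold change of −0.10 (SE 0.032, edgeR adjusted p = 0.0101). Here mouse 6 lay inside the vehicle range and the other IgA mice below it. These were the control guides that stayed past the threshold when any 1 of the 8 mice was left out.

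NT-sg3 fell by 0.11 on the log2 scale (SE 0.031, edgeR adjusted p = 0.00441), from 5699, 5552, 5759 and 5754 normalised CPM to 5455, 5561, 4979 and 5101. Mouse 6 again lay within the vehicle values, and mice 7 and 8 were lowest. NT-sg9, the second scarcest control guide, went the other way, from 2093, 2127, 2180 and 2222 to 2511, 2273, 2517 and 2368, a log2 fold change of 0.16 (SE 0.055, edgeR adjusted p = 0.0258). Its arms did not overlap, though the call was lost when mouse 1, 2, 5 or 7 was left out.

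The other 5 called guides had log2 fold changes of −0.10 to −0.078 and edgeR adjusted p of 0.0138 to 0.0488, and each lost its call without at least 1 of the mice. NT-sg7 had 6254, 6570, 6199 and 6203 normalised CPM under vehicle and 6072, 6183, 5722 and 5664 under IgA, without overlap. NT-sg12 had 7600, 7415, 7410 and 7435 against 7224, 7286, 6737 and 6796, and NT-sg22 had 4576, 4248, 4246 and 4309 against 3915, 4106, 4130 and 4084, both also without overlap. In NT-sg15 and NT-sg4 mouse 6 alone of the IgA mice reached the vehicle range. NT-sg15 had 6334, 6100, 6262 and 6263 against 6070, 6108, 5580 and 5719, and NT-sg4 had 5151, 5119, 5268 and 4941 against 4862, 5025, 4708 and 4868.

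The control guides with the outermost values are NT-sg8, NT-sg9 and, at the upper end after NT-sg9, NT-sg14. NT-sg8 had the lowest value of all, −0.21 (SE 0.100, edgeR adjusted p = 0.103), from 612, 588, 565 and 528 to 484, 534, 461 and 503, and did not pass. NT-sg14, without a CpG, had 4260, 4372, 4305 and 4329 against 4562, 4162, 4684 and 4629, a log2 fold change of 0.052 (edgeR adjusted p = 0.281). NT-sg16, the most abundant, had 8986, 8990, 9251 and 8781 against 8742, 8925, 8534 and 8371, a log2 fold change of −0.064 (edgeR adjusted p = 0.118). Arms without overlap were seen for 6 control guides that were lower under IgA and 1 that was higher, of 24. The background for the same was 10.3% lower and 12.3% higher.

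The count of 9 varied with the mice, and so did the 61 calls of targeting sgRNAs. Without mouse 7, 1 or 6 it was 3, 4 and 13, beside 42, 44 and 81 of 228 targeting sgRNAs. The median log2 fold change of the control guides stayed between −0.065 and −0.050 in all 8 fits without 1 mouse. With the read-file series as a covariate no control guide and 17 of 228 targeting sgRNAs passed edgeR's test. Of the control guides 3 had an unadjusted p under 0.05, and their median was −0.052. Mouse 5 then carries the comparison, as the one IgA mouse in the series of the vehicle mice.

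In ITPK1-KO cells the share of the control guides overlapped between arms. It was 13.5, 13.6, 13.6 and 13.7% in vehicle mice 1 to 4 (mean 13.6 ± 0.101%, SD) and 13.5, 13.5, 13.4 and 13.4% in IgA mice 5 to 8 (mean 13.5 ± 0.0562%, SD). The difference was −0.146 percentage points (SE 0.0579). These samples held 1670000, 2000000, 1500000 and 955000 cells under IgA, and the lowest share was again that of mouse 8. The median log2 fold change was −0.012 over the control guides, from −0.17 to 0.10 with 17 of 24 below 0, and 0.0094 over the targeting sgRNAs.

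1 of 24 control guides was called in ITPK1-KO cells, NT-sg15, against a background of 10.4% of 251 sgRNAs tested, 5.58% higher and 4.78% lower. It fell by 0.085 on the log2 scale (SE 0.029, edgeR adjusted p = 0.0363), from 6160, 6450, 6570 and 6525 normalised CPM to 6169, 6060, 5856 and 6110. Vehicle mouse 1 lay inside the IgA range, and the other vehicle mice above it. The call was lost without mouse 2, 3, 4, 6 or 7 and with the read-file series as a covariate. NT-sg15 was also called in ITPK1-WT cells, with a log2 fold change of −0.094 (SE 0.031, edgeR adjusted p = 0.0159). No control guide had arms without overlap in ITPK1-KO cells, where the background was 6.35% higher and 5.56% lower.

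Set side by side, 17 of 24 control guides were below 0 in both backgrounds, 5 were above 0 in both, and 2 were below 0 in ITPK1-WT cells alone. Both backgrounds came from the same 8 mice. The Pearson correlation of the 2 log2 fold changes was 0.77 over 24 guides and 0.51 over the 22 without NT-sg8 and NT-sg9, against 0.45 over 227 targeting sgRNAs. Spearman's rho had the opposite order, with 0.57 over the 24 guides and 0.44 over the 22, against 0.62 over the targeting sgRNAs. NT-sg8 was lowest and NT-sg9 highest in each background, with −0.17 and 0.10 in ITPK1-KO cells, where neither passed the test. In those cells NT-sg8 had 601, 484, 596 and 586 normalised CPM under vehicle and 550, 509, 509 and 437 under IgA, and NT-sg9 had 2452, 2214, 2179 and 2229 against 2370, 2417, 2538 and 2411. The arms overlapped in both guides, which had the fewest reads of the 24.

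The interaction term tests whether the IgA effect itself differed between backgrounds. NT-sg5 passed, 1 of 24 control guides, against a background of 3.97% of 252 sgRNAs, 1.59% higher in ITPK1-KO cells. ITPK1-KO cells had the higher IgA effect on this guide, by 0.16 on the log2 scale (SE 0.047, edgeR adjusted p = 0.0211). In ITPK1-KO cells NT-sg5 had 4457, 4913, 4856 and 4822 normalised CPM under vehicle and 4798, 4641, 5173 and 5156 under IgA, with overlapping arms. The call was lost without mouse 1, 4, 7 or 8. The median of the difference was 0.020 over the control guides and 0.00013 over the targeting sgRNAs.

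Between backgrounds within an arm, the control guides spanned a narrower range than the targeting sgRNAs. In vehicle mice the SD of the log2 difference, ITPK1-KO minus ITPK1-WT, was 0.047 over the control guides and 0.53 over the targeting sgRNAs. In IgA mice it was 0.052 against 0.58. The 15 guides against tissue-restricted genes had 0.083 in vehicle mice and 0.051 in IgA mice. The 12 sgRNAs against Itpk1, Ipmk, Commd4 and Hspbap1 had 2.06 and 2.22, and the 9 against growth-essential genes 0.84 and 0.96. The medians were 0.013 and 0.036 for control guides and −0.00054 and 0.010 for targeting sgRNAs. The share of reads was higher in ITPK1-KO cells by 0.139 percentage points (SD 0.117) in vehicle mice and by 0.406 (SD 0.141) in IgA mice, in 4 of 4 mice each. Without the sgRNAs of the same 8 genes in the total it was higher in 2 of 4 vehicle mice. At baseline, with 1 library per background, it was lower by 0.204 percentage points.

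In vehicle mice 2 of 24 control guides passed, NT-sg20 (higher in ITPK1-KO cells) and NT-sg3 (lower), against a background of 31.7% of all sgRNAs. In IgA mice 5 of 24 passed, all higher in ITPK1-KO cells (NT-sg5, NT-sg12, NT-sg13, NT-sg20 and NT-sg24), against a background of 34.9%, 16.7% higher. NT-sg13, NT-sg20 and NT-sg24 are named here after their values were seen. Without mouse 7 the count in IgA mice was 3, and that of targeting sgRNAs was 60 in place of 83. Of the 3 control guides, NT-sg5 and NT-sg20 were among the 5 and NT-sg3, lower in ITPK1-KO cells, was not. NT-sg12 and NT-sg13 lost their calls in that fit, and NT-sg24 did so without mouse 6, 7 or 8.

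NT-sg20 was the control guide called in both arms. It had 5133, 5020, 5159 and 5253 normalised CPM in ITPK1-WT cells of vehicle mice and 5528, 5475, 5889 and 5460 in ITPK1-KO cells, a log2 difference of 0.11 (SE 0.031, edgeR adjusted p = 0.00161). In IgA mice it had 5307, 5159, 4976 and 5353 against 5743, 5682, 5750 and 5690, a log2 difference of 0.14 (edgeR adjusted p = 6.23e-05). It was higher in ITPK1-KO cells in 8 of 8 mice, and by 0.073 at baseline. The calls stood when any 1 mouse was left out.

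NT-sg3 was lower in ITPK1-KO cells of vehicle mice, with 4941, 5549, 5123 and 5451 normalised CPM against 5699, 5552, 5759 and 5754 in ITPK1-WT cells (log2 difference −0.11, SE 0.032, edgeR adjusted p = 0.00362). The value was lower in ITPK1-KO cells in every vehicle mouse, by little in mouse 2, and the call was lost without mouse 1. At baseline NT-sg3 already stood at −0.19 on the log2 scale, ITPK1-KO minus ITPK1-WT. NT-sg5 had the largest difference in IgA mice, 0.16 on the log2 scale (edgeR adjusted p = 1.88e-05). It is the guide of the interaction above, and these comparisons share their IgA libraries.

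Against the baseline cultures the control guides shifted little over the 16 hours in vehicle mice. Their median log2 change was −0.019 ± 0.014 (SD over 4 mice) for ITPK1-WT cells and 0.015 ± 0.017 for ITPK1-KO cells. Under IgA it was −0.071 ± 0.020 for ITPK1-WT cells and 0.0077 ± 0.0039 for ITPK1-KO cells. The targeting sgRNAs had medians of 0.0021, −0.0021, 0.018 and 0.0041 in the same order. In ITPK1-WT IgA cells 19 of 24 control guides were below their start, in the other groups 10 to 13. Each background had 1 baseline library, so its own error is not in these SDs.

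The range of the control guides is often used as the null band of a screen. In ITPK1-WT cells it ran from −0.21, set by NT-sg8, to 0.16, set by NT-sg9, on the log2 scale of the IgA effect. Of 228 targeting sgRNAs 23 lay above and 5 below it, 12.3% in all. Of the 61 called targeting sgRNAs 35 lay inside. Without NT-sg8 the lower end was −0.11, 21 targeting sgRNAs lay below it, and 25 called ones were inside. Genes with all 3 sgRNAs beyond the full band were Hspbap1, Ipmk and Itpk1 above and Commd4 below.

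In ITPK1-KO cells the band ran from −0.17 to 0.10. Of 227 targeting sgRNAs 20 lay above and 12 below, 14.1% in all, and 5 of 25 called ones lay inside. Cyld, Grb2 and Hspbap1 had all 3 sgRNAs above, and Commd4 and Ripk1 below. Of the 9 sgRNAs against growth-essential genes, Grb2 among them, 0 were called in ITPK1-KO cells. Their baseline median there was −4.75 on the log2 scale relative to the control median. Without NT-sg8 the lower end was −0.085, 19 targeting sgRNAs lay below it, 1 of 25 called ones lay inside, and Tmem57 also had all 3 sgRNAs below. Cyld, Ripk1 and Tmem57 are named here after their values were seen.

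Control guides and guides against tissue-restricted genes did not share a median. For the 15 guides against the 5 tissue-restricted genes the median IgA effect was 0.062 in ITPK1-WT cells, where 5 were called higher and 2 lower, and 0.046 in ITPK1-KO cells, where 3 were called higher. The control medians were −0.059 and −0.012. The choice of zero line moved the balance of higher and lower calls. With libraries scaled to the summed control guides, 66 targeting sgRNAs were called higher and 6 lower under IgA in ITPK1-WT cells, in place of 34 and 27. In ITPK1-KO cells the numbers were 17 and 8 in place of 14 and 11. For ITPK1-KO against ITPK1-WT in IgA mice they were 16 and 62 in place of 37 and 46.

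Under that scaling 4 control guides were called in ITPK1-WT cells, all higher under IgA (NT-sg2, NT-sg9, NT-sg14 and NT-sg19), and their median was −0.0071, as centring on them makes it. The background was then 30.2%, 27.8% higher and 2.38% lower. No control guide was called in ITPK1-KO cells (background 9.96%) or for the interaction (background 3.57%), where 3 and 1 had an unadjusted p under 0.05 in edgeR's test. Between backgrounds in IgA mice 3 control guides were called, against a background of 32.1%.

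The authors' deposited table for ITPK1-WT cells puts the median log2 fold change of the 24 control guides at −0.00013 and that of the targeting sgRNAs at 0.062. In the authors' deposited table for ITPK1-KO cells these medians are 0.00033 and 0.022. Both of the authors' deposited tables have 12 of 24 control guides below 0, and none with an unadjusted p-value under 0.05. Of the targeting sgRNAs, 4 had such a p-value in the authors' deposited table for ITPK1-WT cells and 19 in that for ITPK1-KO cells. By the FDR in the authors' deposited tables, 0 targeting sgRNAs passed 0.05 for ITPK1-WT cells and 12 for ITPK1-KO cells, and no control guide did. The lowest unadjusted control p-value in the authors' deposited tables was 0.314 for ITPK1-WT cells and 0.0700 for ITPK1-KO cells, NT-sg9 in each. Over the control guides the value in the authors' deposited table exceeded the edgeR log2 fold change by a median of 0.066 for ITPK1-WT cells and 0.016 for ITPK1-KO cells. The sources used here do not say how those tables were normalised.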

How the data were processed

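The authors deposited raw read counts of 252 sgRNAs in 18 libraries. Per the series' design text, guide cassettes were amplified by PCR from genomic DNA, reads were aligned to the guide library, mismatched reads were removed, and sgRNAs were scored with MAGeCK RRA 0.5.6. Which aligner was used is not given in the sources used here. PCR reads carry no molecular identifiers, so intervals cover counting error only. The authors' deposited tables also give a log2 fold change and p-values per sgRNA. Their 4 columns of joined per-sample counts were not used.

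Counts were tested with edgeR 4.0.16 (limma 3.58.1, R 4.3.3): TMM scaling, a filter that kept sgRNAs averaging at least 10 reads, and a quasi-likelihood test of the arms within each background. 1 model of all 16 recovered libraries gave the interaction and the comparisons of backgrounds. The threshold was a Benjamini-Hochberg adjusted p of 0.05 over all sgRNAs tested, and all 24 control guides passed the filter. Normalised CPM used TMM factors over 18 libraries, and log2 reads a pseudocount of 0.5. Arms without overlap were read from these values.

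Library totals ranged from 317564 to 808586 reads. Fits were tested on simulated counts. Alternatives were DESeq2 1.42.0, other scalings and filters, robust dispersion, the read-file series as a covariate, the mouse as a block, and each mouse left out. Both backgrounds of a mouse share its number, so the mouse pairs them. The correlation of their deviations from the group means over 238 sgRNAs with at least 500 reads on average was −0.083 to 0.26. Over the 23 control guides among these it was −0.20 (mouse 5) to 0.53 (mouse 8). Named with values are the most and least abundant control guides, those called between arms, and the 2 highest and 2 lowest in each comparison of arms, with references for guides against tissue-restricted, growth-essential and strongly responding genes. The guides, lists and rule were chosen with earlier results of these data known. Promoter windows were RefSeq's for GRCm38.p6, and a genome sequence was not used here.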

Additional observations from a re-analysis of the deposited data

Results flagged for a closer look

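Within groups of 4 mice, 4 control guides had 1 mouse far from the other 3 by Dixon's test, which flags about 1 in 20 groups by chance. It was run on 52 groups, those of the control guides given in every library. In ITPK1-WT vehicle cells NT-sg7 had 6570 normalised CPM in mouse 2, against 6199 to 6254 in the others. In the same group NT-sg12 had 7600 in mouse 1, against 7410 to 7435. In ITPK1-KO vehicle cells NT-sg8 had 484 in mouse 2, against 586 to 601, and in ITPK1-KO IgA cells NT-sg16 had 8686 in mouse 8, against 8982 to 9038.

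The IgA effect on NT-sg5 differed between backgrounds by 0.16 on the log2 scale (ITPK1-KO minus ITPK1-WT, edgeR interaction term, adjusted p = 0.0211). It was 1 of 24 control guides called, against a background of 3.97% of 252 sgRNAs. The call was lost without mouse 1, 4, 7 or 8, and with libraries scaled to the summed control guides.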

How the results depend on the processing

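Each alternative was run for every result it applies to. Over the settings of the main results, 238 values kept direction and side of the threshold or stayed within their tolerance and 28 moved. Single control guides were followed only in the comparisons of arms, and only those named by the rule above. Of their values 355 stayed, 49 lost and 4 gained a call, and none turned. Calls gained by other control guides, such as NT-sg13 and NT-sg17 in ITPK1-WT cells without mouse 6, are not in these numbers. Scaled to the summed control guides, calls were 4 in place of 9 in ITPK1-WT cells (median −0.0071), 0 in place of 1 in ITPK1-KO cells, 0 in place of 1 for the interaction (median −0.011) and 3 in place of 5 between backgrounds in IgA mice (median −0.0050), a shift that follows from centring on these guides. With the read-file series as a covariate, calls of control guides were 0 in both backgrounds. Calls of targeting sgRNAs were then 17 in place of 61 in ITPK1-WT cells and 15 in place of 25 in ITPK1-KO cells. With the mouse as a block, calls were 1 for the interaction, 3 in place of 2 between backgrounds in vehicle mice (NT-sg24 was added) and 5 in IgA mice, and no other call changed. By the coefficient of variation, the spread over control guides relative to targeting sgRNAs was 0.742 in ITPK1-WT vehicle, 0.735 in ITPK1-WT IgA, 0.720 in ITPK1-KO vehicle and 0.710 in ITPK1-KO IgA cells, in place of 0.638, 0.669, 0.534 and 0.541 by log2 SD. The baseline change in ITPK1-KO IgA cells relative to targeting sgRNAs was 0.0036. With 1 mouse left out, calls of control guides ranged from 3 to 13 in ITPK1-WT cells, beside 41 to 81 of targeting sgRNAs. In ITPK1-KO cells they ranged from 0 to 2, beside 19 to 30 of targeting sgRNAs. For the interaction calls of control guides ranged from 0 to 1. Between backgrounds they ranged from 2 to 3 in vehicle mice (median 0.0049 to 0.027) and from 3 to 5 in IgA mice. The causes were not tested. NT-sg8, with 190 to 430 reads per library, is the control guide that depth limits most.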
